A study of Mus musculus with 6 samples.

Results

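Transcripts of 36 genes that handle fatty acids, from uptake and activation to mitochondrial and peroxisomal oxidation and the PPAR receptors, were compared between regulatory T (Treg) cells made without and with sorafenib (Sora). The members were listed by symbol for their part in this pathway, and all 36 were found among 22939 genes in the deposited count table. Sora is a multikinase inhibitor given in liver cancer. The study took naive CD4+ T cells from C57BL/6J-background mice that carry a GFP knock-in at Foxp3, cultured them with antibodies to CD3 and CD28, TGF-β1 and antibodies to IFN-γ and IL-4, adding Sora (Sora-Treg, 3 libraries) or leaving it out (ctrl-Treg, 3 libraries), and sorted the GFP-positive cells for RNA sequencing. Both groups therefore share the reporter allele, the cytokine, the antibodies and the sort, and both are Treg cells made in culture rather than Treg cells from a tissue. The labels give neither the dose nor the duration of Sora for these 6 libraries, and no animal, culture or batch, so the p-values below measure only the spread between libraries, which may be technical.

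Long-chain fatty acids enter a cell partly through carriers at its surface, are held by binding proteins and are joined to coenzyme A by acyl-CoA synthetases. The carnitine shuttle moves the activated chains into the mitochondrion, where a repeating cycle of dehydrogenation, hydration, a second dehydrogenation and thiolysis shortens them, and the electrons of the first step leave through the electron transfer flavoprotein (ETF). Peroxisomes run a similar cycle on chains that mitochondria handle poorly, and the PPARs are nuclear receptors for fatty acids that switch on many of these genes. Treg cells are known for drawing more on lipid oxidation than effector T cells do, while effector T cells lean on glycolysis.

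Total counts ran from 30727686 to 37717324 per library, at which 3 counts correspond to between 0.0762 and 0.0989 CPM (the count scaled to a library of fixed size), a floor that covers counting error only. The T cell and Treg markers examined averaged at least 148 CPM each over the 6 libraries, among them Foxp3, so the defining markers of the labelled cell type were present. They were not level between groups. All 4 T cell markers and 5 of 6 Treg markers were higher in Sora-Treg cells by the test between groups, against 29.7% of all tested genes. Their log2 fold changes ran from 0.06 for Cd4 to 1.53 for Ctla4, with Foxp3 at 0.07, and Ikzf2 did not pass. Foxp3 overlapped between groups, at 269 CPM in ctrl-Treg library 1 and 268 CPM in Sora-Treg library 2. The values of Cd4 and Foxp3 are also smaller than 0.12, by which scaling libraries by their totals lowers every gene. Of 17 myeloid markers, 14 were at least 2-fold higher in both ctrl-Treg libraries 1 and 2 than in ctrl-Treg library 3. By the test between groups 10 of the 15 tested were lower and 5 did not pass, against 29.9% of all tested genes lower. Over all 17 the sums were 249, 255 and 154 CPM in ctrl-Treg libraries 1 to 3 and 149, 185 and 148 CPM with Sora. Ctss and Apoe were abundant and did not pass that test. Without them the sums were 116, 116 and 29.9 CPM in ctrl-Treg libraries 1 to 3 and 26.1, 51.5 and 24.6 CPM with Sora. All 4 tested B cell markers were lower in Sora-Treg cells, at summed levels from 9.71 to 10.7 CPM in ctrl-Treg and from 6.09 to 7.68 CPM in Sora-Treg libraries. The adipocyte markers Adipoq and Cidec reached no more than 1 count per library, and the hepatocyte markers Alb and Apoa1 no more than 9 and 1. The part that other cell types play in the values below was not tested, except where a value is given.

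Promoter sequence was examined for members that moved together or have a known tie to PPARs. RefSeq windows on GRCm38.p6, from 250 bases before to 50 bases after an annotated start, were found for 29 of the 36 members. The bases printed lie upstream of the start and outside the annotated untranslated exons, except for Pparg, and read 5′ to 3′ on the gene's strand. For the ETF genes capitals mark GCGCA followed, after 1 free base, by GCGC, the core of sites for the respiratory-gene factor NRF1, searched on both strands. The Etfa stretch lies on chromosome 9 (chr9:55512244-55512393, minus strand), the Etfb stretch on chromosome 7 (chr7:43443922-43444071, plus strand) and the Etfdh stretch on chromosome 3 (chr3:79628864-79629013, minus strand).
Etfa: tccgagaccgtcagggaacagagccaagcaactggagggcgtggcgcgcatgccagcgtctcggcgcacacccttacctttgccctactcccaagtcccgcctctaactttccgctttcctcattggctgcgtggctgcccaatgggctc
Etfb: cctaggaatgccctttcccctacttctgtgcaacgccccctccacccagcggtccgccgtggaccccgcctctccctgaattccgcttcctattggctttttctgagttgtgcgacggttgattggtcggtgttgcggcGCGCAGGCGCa
Etfdh: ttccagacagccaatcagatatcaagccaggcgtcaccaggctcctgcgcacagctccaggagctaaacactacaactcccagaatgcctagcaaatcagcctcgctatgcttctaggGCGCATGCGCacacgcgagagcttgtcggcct
The motif was in the windows of Etfb, Etfdh and Ppara, which is 10.3% of the 29 members, against 5.19% of 27025 genes with a window. Its first base lay 11 bases before the Etfb start and 128 before the Etfdh start, and these letters were not in the Etfa window.

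The PPAR half-site AGGTCA, searched on both strands, was in the windows of 7 of the 29 members (24.1%), namely Abhd5, Acadm, Acadvl, Cd36, Cpt1a, Plin2 and Pparg, against 18.1% of all genes. Capitals mark it in Acadvl and Cpt1a, which moved in opposite directions, and in Pparg, the only member past 2-fold among those called. In Cpt1a it reads on the other strand, as TGACCT. The Acadvl stretch lies on chromosome 11 (chr11:70015429-70015578, minus strand) and the Cpt1a stretch on chromosome 19 (chr19:3323135-3323284, plus strand). The Pparg stretches are the half-site with 10 bases on either side at each of 2 annotated starts. They lie on chromosome 6 (chr6:115361106-115361131, plus strand) and (chr6:115362330-115362355), and both overlap exons that GENCODE M21 counts as untranslated. The window of another annotated Pparg start on chromosome 6 (chr6:115421816-115422115, plus strand) held no half-site. Which start these cells use was not examined.
Acadvl: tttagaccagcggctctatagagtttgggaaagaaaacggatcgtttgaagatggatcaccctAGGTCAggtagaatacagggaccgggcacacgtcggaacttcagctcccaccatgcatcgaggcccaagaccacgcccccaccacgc
Cpt1a: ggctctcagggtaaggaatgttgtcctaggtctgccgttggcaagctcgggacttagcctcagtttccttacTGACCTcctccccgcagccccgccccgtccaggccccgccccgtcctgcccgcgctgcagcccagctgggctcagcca
Pparg, first start: ccgccgcctcAGGTCAgagtcgcccc
Pparg, second start: ggacgcgaggAGGTCAagaaggggcc
The direct repeat of that half-site with 1 free base between the copies, which PPAR and RXR bind as a pair, was in no member's window and in 0.0481% of all genes. Of the common promoter motifs, GGGCGG was in 86.2% of the members against 38.2% of all genes, CCAAT in 55.2% against 41.1% and CACGTG in 3.45% against 8.09%. For every motif the 27025 genes compared were taken whether or not they were expressed in these cells, while 35 of the 36 members passed the filter on low counts. The shares among expressed genes alone were not examined. A match is a string of letters and was not tested as a binding site.

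The question put to the members was whether Sora changed their transcript levels, and the answer differed by gene rather than for the pathway as a whole. Of the 36 members 35 passed the filter on low counts, and of these 13 were higher and 9 lower in Sora-Treg cells by edgeR's quasi-likelihood test with Benjamini-Hochberg adjustment over all genes, while 13 did not pass. Those 22 are 62.9% of the tested members, against 59.6% of 13463 tested genes, of which 29.7% were higher and 29.9% lower. Among genes with a mean of at least 5 CPM the shares were 21 of 33 members (63.6%) and 67.4% of genes. The members as a list therefore stood near the background. The 3 values of one group lay wholly above those of the other in 21 members, 13 of them higher and 8 lower in Sora-Treg cells, against 63.7% of all tested genes. Changes were small, with 19 of the 22 under 1.5-fold, 2 between 1.5-fold and 2-fold (Etfb and Ppargc1b) and 1 (Pparg) past the 2-fold limit that the study sets for a differentially expressed gene (DEG), a limit passed by 11.3% of all tested genes. The median absolute log2 fold change was 0.24 over the members and 0.28 over all tested genes, and the median signed value 0.01 and -0.00. Summed over the members, the libraries held from 1425 to 1435 CPM in ctrl-Treg and from 1444 to 1470 CPM in Sora-Treg cells. This order rests on scaling by the trimmed mean of M-values (TMM), with factors of 1.04 in ctrl-Treg and 0.96 in Sora-Treg libraries. With libraries scaled by their totals instead, which lowers the log2 fold change of every gene by 0.12, 11 members were higher and 16 lower. Without ctrl-Treg libraries 1 and 2, a fit that leaves 1 ctrl-Treg library, the counts were 11 and 6.

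**Figure D1:**
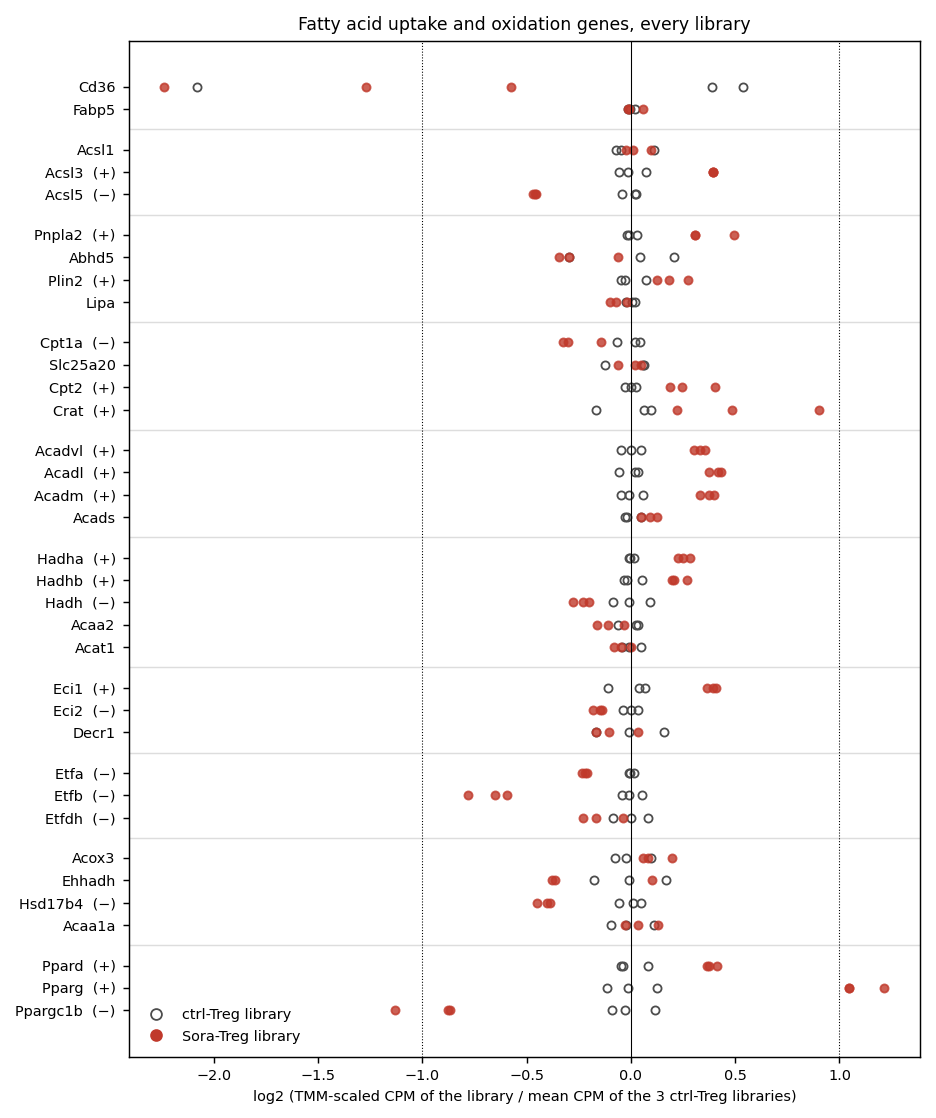
Each row is a member and each point 1 library, placed at the log2 ratio of its TMM-scaled CPM to the mean of the 3 ctrl-Treg libraries (open circles ctrl-Treg, filled circles Sora-Treg, signs after a symbol mark members called higher or lower, dotted lines mark 2-fold). The 3 Sora-Treg points of Pparg and 1 of Ppargc1b lie beyond 2-fold. So do the points of Cd36 in ctrl-Treg library 3 and Sora-Treg libraries 1 and 3, and its points are the most scattered of the 35 tested members.

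Compared between genes, levels were divided by the length of the principal transcript, in CPM per kb. In ctrl-Treg cells the highest was Fabp5, a carrier of fatty acids inside the cell, at 81.9 ± 0.997 CPM per kb (SD, n = 3), followed by Etfb at 46.8 ± 1.62 and Etfa at 41.5 ± 0.350. Acadvl (33.2 ± 1.12), Acadl (33.0 ± 1.11), Acsl5 (33.0 ± 0.868) and Eci2 (32.7 ± 0.805) came next and lay within each other's spread. In Sora-Treg cells Fabp5 kept the first place at 82.6 ± 2.21 CPM per kb, Acadl (43.8 ± 0.941) and Acadvl (41.7 ± 0.807) followed, and Etfb stood 6th of 36 at 29.3 ± 1.92. The lowest members in ctrl-Treg cells were Ppara at 0.0271 ± 0.00283, Cd36 at 0.234 ± 0.155, Crat at 1.53 ± 0.148 and Pparg at 1.70 ± 0.143 CPM per kb. The order depends on the length used. The length implied by the deposited FPKM values is over 1.5 times the principal transcript in 9 members, and for Etfa it is 9685 against 1392 bases, which would put Etfa at 5.97 CPM per kb and 26th of 36.

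**Figure D2:**
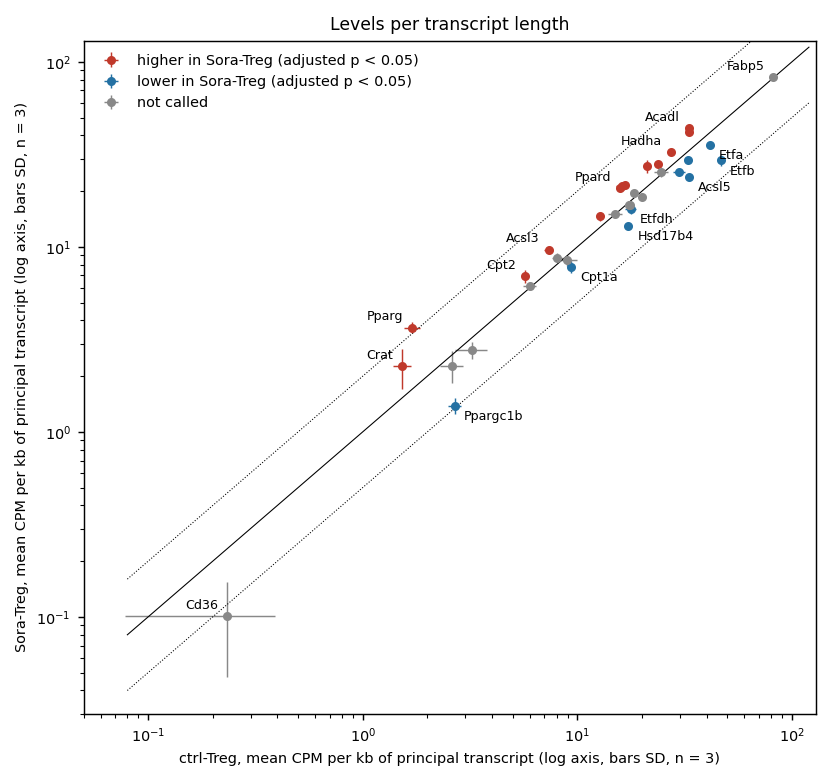
Mean levels of 35 members in ctrl-Treg (horizontal) and Sora-Treg cells (vertical), in CPM per kb of principal transcript on log axes with SD bars (n = 3), coloured by call; Ppara is not shown. The members called lie close to the line of equal level, between the dotted 2-fold lines except Pparg.

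Uptake and intracellular carriage showed no member past the threshold. Cd36, a surface carrier of fatty acids and scavenger receptor known from macrophages and adipocytes, had 1.04, 1.15 and 0.188 CPM without Sora and 0.330, 0.533 and 0.169 CPM with Sora, which rest on 41, 42 and 6 counts without Sora and 10, 17 and 6 counts with Sora. Its ctrl-Treg libraries 1 and 2 stood above the other 4 libraries, and ctrl-Treg library 3 lay within the Sora-Treg range. The log2 fold change was -1.24 ± 0.53 (SE, adjusted p = 0.0509). The mean of ctrl-Treg libraries 1 and 2 was 5.84 times the value of library 3, a split shared with the myeloid markers above, and in bulk RNA fewer cells of a type and less RNA per cell cannot be told apart. With both libraries left out the log2 fold change of Cd36 was 0.85 (adjusted p = 0.528), and with ctrl-Treg library 3 or Sora-Treg library 2 left out it passed the threshold. Across all other members the same ratio among the ctrl-Treg libraries ran from 0.846 to 1.12, apart from Abhd5 at 1.34.

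Fabp5 was abundant and level, at 81.9, 79.9 and 80.7 CPM without Sora and 80.2, 84.0 and 80.3 CPM with Sora. The groups overlapped and the log2 fold change was 0.01 ± 0.04 (SE, adjusted p = 0.812), so any difference was small beside those of other members. With libraries scaled by their totals it was -0.10 and was called lower, which is within the shift of 0.12 that this scaling gives every gene. Fabp5 has close relatives and processed copies in the genome, between which reads could have been split.

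**Figure D3:**
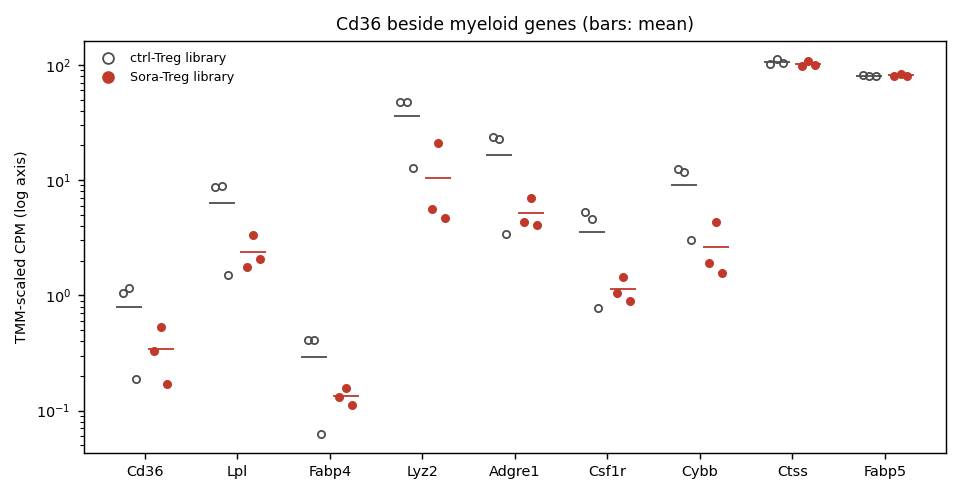
Cd36 and Fabp5 beside myeloid genes and the lipid genes Lpl and Fabp4, in TMM-scaled CPM on a log axis, 1 point per library with the mean as a bar. Fabp4, chosen after its values were seen, did not pass the filter on low counts. It had 16, 15 and 2 counts without Sora and 4, 5 and 4 counts with Sora. Cd36, Lpl, Fabp4, Lyz2, Adgre1, Csf1r and Cybb are highest in ctrl-Treg libraries 1 and 2, while Ctss and Fabp5 are level over all 6 libraries.

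The 3 long-chain acyl-CoA synthetases among the members went separate ways. Acsl5, a form found on mitochondria and the endoplasmic reticulum, had 142, 136 and 142 CPM without Sora and 101, 102 and 102 CPM with Sora. It fell in Sora-Treg cells, with a log2 fold change of -0.46 ± 0.03 (SE, adjusted p = 8.13e-11). Acsl3, the form that sits on nascent lipid droplets, had 28.7, 27.9 and 30.5 CPM without Sora and 38.1, 38.1 and 38.2 CPM with Sora, and rose by 0.39 ± 0.05 (SE, adjusted p = 1.71e-06) on the log2 scale. Neither gene overlapped between groups. Acsl1, the form best known from fat and liver, gave values from 22.3 to 25.3 CPM in ctrl-Treg and from 23.1 to 25.0 CPM in Sora-Treg libraries, with groups that overlapped and a log2 fold change of 0.03 ± 0.07 (SE, adjusted p = 0.714). The ratio of Acsl3 to Acsl5 counts within a library, which no scaling changes, was 0.203, 0.205 and 0.214 without Sora and 0.377, 0.374 and 0.373 with Sora. This and the other ratios below were chosen after the values had been seen and carry no test. Acsl5 shares exon positions on the opposite strand with Zdhhc6 (1187 to 1533 counts, log2 fold change -0.09 ± 0.05), and Acsl3 on the same strand with Utp14b (135 to 159 counts).

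Of the 4 genes for stored lipid, 2 rose and none fell (50% called, against 59.6% of all tested genes). Pnpla2, the lipase that opens triglyceride breakdown in lipid droplets, had 38.7, 37.3 and 37.5 CPM without Sora and 53.3, 46.8 and 46.8 CPM with Sora. Every Sora-Treg library exceeded every ctrl-Treg library, and the log2 fold change was 0.37 ± 0.05 (SE, adjusted p = 3.57e-06). Plin2, which coats lipid droplets, had 23.7, 25.4 and 23.3 CPM without Sora and 27.4, 29.1 and 26.3 CPM with Sora, a rise of 0.19 ± 0.07 (SE, adjusted p = 0.0139) on the log2 scale with groups that did not overlap. That call was lost with ctrl-Treg library 3 or Sora-Treg library 2 left out, under scaling by library totals and in limma on FPKM. Abhd5, the protein that activates the lipase, had 10.5, 11.8 and 8.33 CPM without Sora and 9.79, 8.31 and 8.03 CPM with Sora. Its groups overlapped and its log2 fold change was -0.24 ± 0.12 (SE, adjusted p = 0.0933). That value rests on single libraries, at -0.12 without ctrl-Treg library 2, 0.06 without ctrl-Treg libraries 1 and 2, and -0.36 and -0.32, both called lower, without ctrl-Treg library 3 or Sora-Treg library 1 (adjusted p = 0.0117 and 0.0343). Lipa, the acid lipase of lysosomes, ranged from 51.5 to 53.1 CPM in ctrl-Treg and from 48.9 to 51.8 CPM in Sora-Treg libraries with a log2 fold change of -0.06 ± 0.04 (SE, adjusted p = 0.236). It was called lower under scaling by library totals and in limma on FPKM, settings that also lower the median of all genes.

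Within the carnitine shuttle the outer and inner transferases moved in opposite directions. Cpt1a, which joins long chains to carnitine at the outer membrane and is held to limit the rate of entry, had 40.8, 41.5 and 38.4 CPM without Sora and 36.4, 32.1 and 32.6 CPM with Sora. It fell, with a log2 fold change of -0.26 ± 0.06 (SE, adjusted p = 0.000501) and no overlap between the groups. Cpt2, which frees the chains again on the inner membrane, had 13.3, 13.6 and 13.8 CPM without Sora and 16.1, 15.5 and 18.0 CPM with Sora and rose by 0.28 ± 0.08 (SE, adjusted p = 0.00485) on the log2 scale. Slc25a20, the carrier that swaps acylcarnitine for carnitine across the inner membrane, ranged from 24.6 to 27.9 CPM in ctrl-Treg and from 25.7 to 27.7 CPM in Sora-Treg libraries, and its log2 fold change was 0.01 ± 0.07 (SE, adjusted p = 0.95). Crat, which makes and breaks acetylcarnitine, had 5.74, 6.90 and 6.73 CPM without Sora and 12.1, 9.03 and 7.53 CPM with Sora. The Sora-Treg libraries of Crat were scattered but all stood above the ctrl-Treg libraries, with a log2 fold change of 0.56 ± 0.14 (SE, adjusted p = 0.00151). Cpt2 counts divided by Cpt1a counts gave 0.326, 0.328 and 0.359 without Sora and 0.442, 0.482 and 0.551 with Sora. Without ctrl-Treg libraries 1 and 2, when a single ctrl-Treg library remains, Cpt1a, Cpt2 and Crat did not pass, at log2 fold changes of -0.19, 0.26 and 0.50. Crat was at 0.36 without Sora-Treg library 1, still called. The call of Crat was also lost with limma on FPKM, and that of Cpt2 under scaling by library totals and in 2 of the 3 fits of limma on FPKM. Crat shares exon positions on the opposite strand with Dolpp1, which had 297 to 531 counts and fell by 0.23 on the log2 scale.

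The acyl-CoA dehydrogenases open each turn of the mitochondrial cycle and differ in the chain length they accept. Of the 4 among the members 3 were higher and none lower (75% called, against 59.6% of all tested genes). Acadvl, for very long chains, had 71.9, 74.4 and 69.5 CPM without Sora and 92.1, 88.7 and 90.6 CPM with Sora. Acadl, for long chains, had 64.8, 60.8 and 64.1 CPM without Sora and 85.4, 81.9 and 84.4 CPM with Sora. Acadm, for medium chains, had 35.5, 33.8 and 32.9 CPM without Sora and 44.9, 44.2 and 42.8 CPM with Sora. In each of these 3 genes all Sora-Treg libraries lay above all ctrl-Treg libraries. The log2 fold changes were 0.33 ± 0.04 (SE, adjusted p = 1.78e-07), 0.41 ± 0.04 (SE, adjusted p = 1.03e-08) and 0.37 ± 0.05 (SE, adjusted p = 1.73e-06), and these 3 calls held in all 17 alternative settings. Acads, for short chains, ranged from 33.8 to 35.6 CPM in ctrl-Treg and from 35.6 to 37.6 CPM in Sora-Treg libraries, and at 0.09 ± 0.05 (SE, adjusted p = 0.157) its log2 fold change did not pass. Acadvl shares exon positions on the opposite strand with Dvl2, which had 925 to 1193 counts and a log2 fold change of 0.14 ± 0.06. Genes of this family outside the members, named after their values were seen, went both ways. Acad8, Acad9 and Acad11 had log2 fold changes of -0.57 ± 0.08, -0.58 ± 0.06 and -0.55 ± 0.06 (SE, adjusted p = 1.47e-06, 3.32e-08 and 2.94e-08). Acadsb rose by 0.28 ± 0.05 (SE, adjusted p = 0.000106), and Acad10 and Acad12 did not pass.

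The 3 ETF genes, whose product takes electrons from acyl-CoA dehydrogenases, were all lower (100% called, against 59.6% of all tested genes). Etfb, the smaller subunit of the flavoprotein, had 41.5, 43.4 and 40.5 CPM without Sora and 26.6, 24.3 and 27.7 CPM with Sora. The groups stood well apart and the log2 fold change was -0.67 ± 0.06 (SE, adjusted p = 1.03e-09), second in size to that of Ppargc1b among the lower members. Etfa, the larger subunit, had 57.7, 57.4 and 58.4 CPM without Sora and 50.02, 49.2 and 49.6 CPM with Sora, with a log2 fold change of -0.22 ± 0.04 (SE, adjusted p = 0.000108). Its libraries were tightly grouped, with SDs of 0.488 CPM in ctrl-Treg and 0.419 CPM in Sora-Treg cells. Etfdh, the membrane enzyme that hands the electrons to ubiquinone, had 42.2, 39.8 and 44.7 CPM without Sora and 41.1, 36 and 37.6 CPM with Sora. In Etfdh 1 Sora-Treg library lay inside the ctrl-Treg range, and its log2 fold change of -0.14 ± 0.06 (SE, adjusted p = 0.0366) lost its call with DESeq2 and when any of 4 single libraries was left out (ctrl-Treg 1 or 3, Sora-Treg 2 or 3). Etfdh shares exon positions on the opposite strand with 4930579G24Rik, which had 179 to 466 counts and fell by 0.71 ± 0.12 on the log2 scale (adjusted p = 2.85e-05). The strand setting of the counting is not stated, so reads of such pairs cannot be told apart.

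Set against each other, the count of Etfb per count of Acadl was 0.639, 0.713 and 0.632 without Sora and 0.311, 0.297 and 0.328 with Sora. Against Acadm it was 1.17, 1.28 and 1.23 without Sora and 0.591, 0.550 and 0.646 with Sora. Both ratios were lower in every Sora-Treg library than in any ctrl-Treg library, so the lower level of Etfb relative to these dehydrogenases does not rest on how libraries were scaled.

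**Figure D4:**
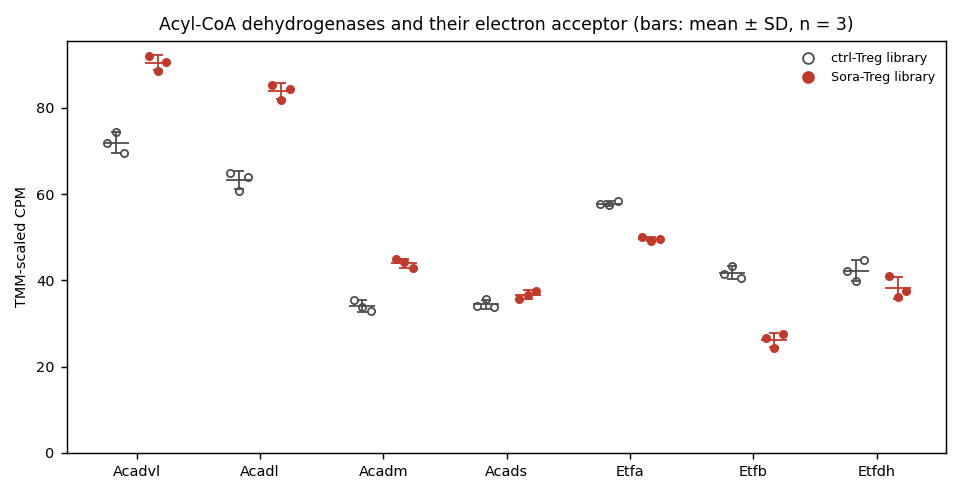
TMM-scaled CPM of the 4 acyl-CoA dehydrogenases among the members and the 3 ETF genes in every library (open ctrl-Treg, filled Sora-Treg), with the mean ± SD (n = 3). Acadvl, Acadl and Acadm lie higher and Etfa and Etfb lower in all 3 Sora-Treg libraries, while Acads and Etfdh overlap between groups.

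In the later steps of the mitochondrial cycle 2 genes rose, 1 fell and 2 did not pass (60% called, against 59.6% of all tested genes). Hadha and Hadhb encode the subunits of the trifunctional protein, which carries out the last steps on long chains. Hadha had 109, 111 and 109 CPM without Sora and 130.4, 128 and 134 CPM with Sora, a rise of 0.25 ± 0.03 (SE, adjusted p = 1.03e-06) on the log2 scale. Hadhb had 50.6, 48.3 and 47.7 CPM without Sora and 59.0, 56.0 and 56.4 CPM with Sora, a rise of 0.22 ± 0.05 (SE, adjusted p = 0.000183). Neither overlapped between groups, though limma on FPKM did not call Hadhb. Hadh, the hydroxyacyl-CoA dehydrogenase for shorter chains, had 56.7, 53.0 and 50.1 CPM without Sora and 43.9, 46.4 and 45.4 CPM with Sora and fell, with a log2 fold change of -0.24 ± 0.05 (SE, adjusted p = 0.0003), or -0.15 without ctrl-Treg libraries 1 and 2, when it did not pass. The ratio of Hadha to Hadh counts was 1.93, 2.09 and 2.17 without Sora and 2.97, 2.76 and 2.94 with Sora. The thiolases Acaa2 and Acat1, which release acetyl-CoA, had log2 fold changes of -0.10 ± 0.06 (SE, adjusted p = 0.154) and -0.04 ± 0.04 (SE, adjusted p = 0.427), with groups that overlapped. Both were called lower under scaling by library totals and in limma on FPKM, settings that also lower the median of all genes.

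Unsaturated chains need helper enzymes before they can pass the cycle, and the 2 isomerases among the members moved apart. Eci1, the mitochondrial isomerase, had 18.9, 19.3 and 17.1 CPM without Sora and 24.5, 24.2 and 23.7 CPM with Sora and rose by 0.39 ± 0.07 (SE, adjusted p = 5.68e-05) on the log2 scale. Eci2, found in peroxisomes and mitochondria, had 58.4, 55.6 and 57.1 CPM without Sora and 51.5, 50.2 and 51.8 CPM with Sora and fell, with a log2 fold change of -0.16 ± 0.04 (SE, adjusted p = 0.00369). The groups did not overlap in either gene. With a single ctrl-Treg library, libraries 1 and 2 being left out, Eci2 had the same value of -0.16 but did not pass (adjusted p = 0.0688). Counts of Eci1 per count of Eci2 were 0.324, 0.347 and 0.299 without Sora and 0.475, 0.482 and 0.458 with Sora. Decr1, the mitochondrial dienoyl-CoA reductase, ranged from 23.6 to 29.5 CPM in ctrl-Treg and from 23.5 to 27.1 CPM in Sora-Treg libraries, with a log2 fold change of -0.07 ± 0.08 (SE, adjusted p = 0.427).

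Of the 4 peroxisomal members 1 fell and none rose (25% called, against 59.6% of all tested genes). Hsd17b4, the bifunctional protein that carries out the middle steps on very long and branched chains, had 46.7, 44.5 and 47.9 CPM without Sora and 35.0, 35.5 and 33.9 CPM with Sora. All 3 Sora-Treg libraries lay well below the ctrl-Treg libraries, and the log2 fold change was -0.41 ± 0.05 (SE, adjusted p = 2.39e-07), a call kept in all 17 alternative settings. Ehhadh, the other bifunctional protein, was low at 6.88, 8.74 and 7.73 CPM without Sora and 6, 6.05 and 8.34 CPM with Sora, with groups that overlapped and a log2 fold change of -0.19 ± 0.13 (SE, adjusted p = 0.237), or -0.37 and called lower without Sora-Treg library 3. Acox3, an oxidase for branched chains, and Acaa1a, a peroxisomal thiolase, had log2 fold changes of 0.11 ± 0.06 (SE, adjusted p = 0.106) and 0.04 ± 0.06 (SE, adjusted p = 0.523) and also overlapped between groups, although Acox3 was called higher, at 0.16, without ctrl-Treg library 3. Acaa1a shares exon positions on the opposite strand with Myd88, which had 1353 to 1759 counts and rose by 0.21 ± 0.05 on the log2 scale. Its close relative Acaa1b had at most 7 counts.

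Among the members called, Pparg and the coactivator Ppargc1b had the largest changes. Pparg, the receptor that drives lipid storage in fat cells and is also found in Treg cells of fat tissue, had 3.28, 2.78 and 2.97 CPM without Sora and 6.99, 6.21 and 6.21 CPM with Sora. Every Sora-Treg library lay above every ctrl-Treg library, with means of 3.01 ± 0.252 CPM without Sora and 6.47 ± 0.448 CPM with it (SD, n = 3) and a log2 fold change of 1.10 ± 0.15 (SE, adjusted p = 7.97e-07). It was the only DEG among the members, although under scaling by library totals and in limma on FPKM its fold was under 2. Ppard, the most abundant of the 3 receptors per kb, had 50.4, 55.1 and 50.6 CPM without Sora and 66.9, 69.3 and 67.5 CPM with Sora and rose by 0.38 ± 0.04 (SE, adjusted p = 1.29e-07) without overlap. Ppara, the receptor that governs fatty acid oxidation in liver, was below the filter with 4, 3 and 3 counts without Sora and 1, 5 and 7 counts with Sora, near the floor of 3 counts, so no difference was detectable at this depth. Ppargc1b, a coactivator of nuclear receptors that promotes mitochondrial genes, had 10.6, 9.20 and 9.61 CPM without Sora and 5.37, 4.49 and 5.34 CPM with Sora. Its Sora-Treg libraries lay near 0.516 of the ctrl-Treg level, with a log2 fold change of -0.95 ± 0.12 (SE, adjusted p = 2.42e-07) and no overlap. The ratio of Pparg to Ppargc1b counts was 0.309, 0.301 and 0.309 without Sora and 1.30, 1.38 and 1.16 with Sora.

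Other genes of the pathway were read from lists of 113 names, of which 109 were in the table and 85 were tested. Of these 25 were higher, 29 lower and 31 did not pass, so 63.5% were called against 59.6% of all tested genes, and 6 (7.06%) were DEGs against 11.3%. By the share called these lists too stood near the background. Among transport, binding and activation genes 5 of 10 were higher and 3 lower. There the fatty acid transport protein Slc27a4 rose by 0.69 ± 0.06 (SE, adjusted p = 4.08e-10), and the synthetases Acsl4 and Acsbg1 by 0.59 ± 0.05 (SE, adjusted p = 5.59e-10) and 0.58 ± 0.05 (SE, adjusted p = 7.45e-10). Among further mitochondrial and ketone genes 4 of 21 were higher and 8 lower. The ketone-using transferase Oxct1 had a log2 fold change of -0.44 ± 0.04 (SE, adjusted p = 7.18e-10), the thioesterase Acot2 -1.12 ± 0.10 (SE, adjusted p = 1.37e-09) and its relative Acot9 0.44 ± 0.05 (SE, adjusted p = 2.53e-08). Among further peroxisomal genes 3 of 20 were higher and 7 lower. Cat, the catalase, and Abcd3, a peroxisomal carrier, had -0.40 ± 0.04 (SE, adjusted p = 4.03e-08) and -0.37 ± 0.07 (SE, adjusted p = 3.99e-05). Among partners and regulators of PPARs 5 of 16 were higher and 6 lower. Rxra, a nuclear receptor that pairs with PPARs, had 42.0, 39.3 and 37.8 CPM without Sora and 24.7, 21.9 and 19.5 CPM with Sora. It fell, with a log2 fold change of -0.85 ± 0.07 (SE, adjusted p = 5.57e-10). The related partner Rxrb, named after its values were seen, was more abundant and went the other way. It had 69.8, 67.8 and 71.0 CPM without Sora and 89.6, 85.7 and 87.8 CPM with Sora, a rise of 0.34 ± 0.04 (SE, adjusted p = 1.14e-07). Pprc1, a relative of Ppargc1b, had a log2 fold change of -0.45 ± 0.04 (SE, adjusted p = 4.47e-10), and the corepressor Nrip1 0.46 ± 0.04 (SE, adjusted p = 2.86e-09). Ppargc1a, another relative of Ppargc1b named after its values were seen, had 0.75 ± 0.32 (SE, adjusted p = 0.0501) and did not pass. It rests on 25, 38 and 24 counts without Sora and 44, 39 and 50 counts with Sora.

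Of 18 tested lipid droplet and lipase genes 8 were higher and 5 lower (72.2% called, against 59.6% of all tested genes), and 4 (22.2%, against 11.3%) were DEGs, with Dgat1, Hilpda and Gpat3 higher and G0s2 lower. Gpat3, an acyltransferase of glycerolipid synthesis, and G0s2, an inhibitor of the lipase encoded by Pnpla2, were named after their values were seen and had log2 fold changes of 1.51 ± 0.22 (SE, adjusted p = 3.12e-06) and -1.96 ± 0.52 (SE, adjusted p = 0.00229), G0s2 on 2 to 23 counts per library. Dgat1, which completes triglyceride synthesis, had 21.8, 20.3 and 21.0 CPM without Sora and 101, 101 and 98.7 CPM with Sora, a log2 fold change of 2.25 ± 0.05 (SE, adjusted p = 5.1e-21). Hilpda, a droplet protein that restrains the lipase encoded by Pnpla2, had 108, 105 and 106 CPM without Sora and 229, 238 and 229 CPM with Sora, or 1.12 ± 0.03 (SE, adjusted p = 1.9e-18). Soat1, which makes cholesterol esters, had 0.79 ± 0.04 (SE, adjusted p = 2.37e-14). Chosen after the values were seen, Lipe, the hormone-sensitive lipase, had 24.6, 21.5 and 25.3 CPM without Sora and 43.3, 42.0 and 44.4 CPM with Sora with a log2 fold change of 0.86 ± 0.06 (SE, adjusted p = 3.53e-11). Dgat2, the other enzyme of the last step of triglyceride synthesis, chosen in the same way, had 27.2, 26.3 and 30.2 CPM without Sora and 16.4, 13.2 and 16.2 CPM with Sora with a log2 fold change of -0.87 ± 0.08 (SE, adjusted p = 4.74e-09). In ctrl-Treg cells Dgat1 counts per Dgat2 count were 0.803, 0.771 and 0.697, and in Sora-Treg cells 6.16, 7.70 and 6.10. Lpl, a lipase at the cell surface chosen after its values were seen, had 8.69, 8.85 and 1.5 CPM without Sora and 1.75, 3.33 and 2.08 CPM with Sora and a log2 fold change of -1.43 ± 0.37 (SE, adjusted p = 0.00213), with the same split among the ctrl-Treg libraries as Cd36.

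**Figure D5:**
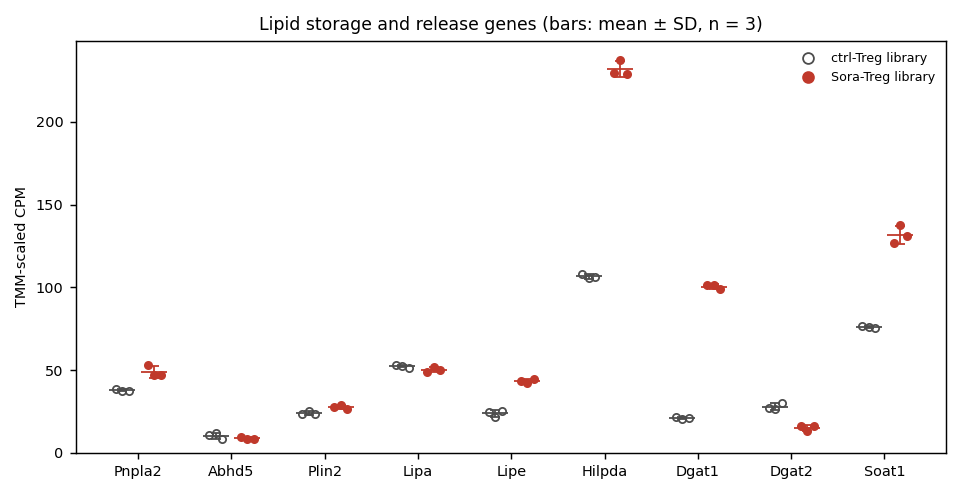
TMM-scaled CPM of lipid storage and release genes in every library, with the mean ± SD (n = 3); Pnpla2, Abhd5, Plin2 and Lipa are members and the other 5 are not. Dgat1, Hilpda, Soat1, Lipe and Pnpla2 lie higher and Dgat2 lower in all 3 Sora-Treg libraries.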

How the data were processed

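RNA of 3 ctrl-Treg and 3 Sora-Treg libraries was sequenced on the BGISEQ-500 platform. The authors deposited a table of raw counts by gene symbol, and FPKM values for the same genes and libraries. In the deposited FPKM table each value equalled the count over a fixed length for that gene and over the library's total (largest relative difference 1.64e-06), so it is no separate measurement. The study's methods name GRCm38, Bowtie2 and an expectation-maximization step, whereas the submitters' processing notes name GRCm39, fastp, HISAT2, HTSeq, DESeq2 and R 3.2.0. Which of these made the files is not settled here, so coordinates are given only for the printed promoter stretches, on the build of their reference, and the strand setting is not given in the sources used here. Groups and replicate numbers came from the sample titles, and 0 columns were left unmapped.

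Counts were fitted with edgeR 4.0.16 (quasi-likelihood test; R 4.3.3), with TMM scaling, filterByExpr (13463 of 22939 genes), no covariate and Benjamini-Hochberg adjustment over all tested genes at 0.05. The SE is the one that the F statistic implies. CPM is scaled by TMM. With 3 against 3, a permutation test of 1 value cannot go below 0.1. Pairs of libraries in a group differed by more than sampling noise (chi-square per degree of freedom 3.36 to 5.91), and the biological coefficient of variation was 4.29%. Scripts were tested on simulated data.

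The members, the other lists, the markers, the motifs and the tests were chosen with earlier results of these data known. All members are named, with the 3 other genes of smallest adjusted p in each of 5 lists among those with a mean of at least 5 CPM (1 gene so chosen is not reported here), and any further gene is named as chosen after its values were seen. Mut and Mmut, both listed, are names of 1 gene. Principal transcripts and overlapping genes are from GENCODE M21 on GRCm38, and promoter windows from RefSeq on GRCm38.p6. Promoter and length comparisons use symbols and not read positions. Alternatives were RLE, upper quartile and total-count scaling, a count of at least 1 in any library, a filter at 1 CPM in 3 or more libraries, DESeq2 1.42.0, a block for the replicate number, single libraries left out, limma 3.58.1 on log2(FPKM + 1) or log2(FPKM + 0.1) for genes with an FPKM of at least 1 in at least 3 libraries, and log2(FPKM + 1) without that filter. Leaving out ctrl-Treg libraries 1 and 2 together was added after seeing the data.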

Additional observations from a re-analysis of the deposited data

How the results depend on the processing

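Of the 22 members called, 14 kept their call in each of the 17 alternative settings that tested them, as did all 15 other pathway genes named by rule, and no called member reversed. Left out singly, libraries gave 12 to 13 members higher, 8 to 10 lower and a median log2 fold change from -0.00175 to 0.0264, and 21 to 25 other pathway genes higher and 26 to 30 lower. The replicate numbers did not pair the libraries (correlations of their deviations -0.0438, 0.0591 and 0.0299), and with the number as a block 13 members were higher and 10 lower, Cd36 being the addition.

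Members lower numbered 16 with libraries scaled by their totals, the additions being Cd36, Fabp5, Abhd5, Lipa, Acaa2, Acat1 and Decr1. With limma on log2(FPKM + 1), log2(FPKM + 0.1) and unfiltered log2(FPKM + 1), members higher numbered 10, 9 and 9 and lower 12, 12 and 13. Fabp5, Lipa, Acaa2 and Acat1 were additions to the lower members in each of these limma fits. Cd36 was also called lower under upper quartile scaling, under the loosest count filter and without ctrl-Treg library 3 or Sora-Treg library 2. The count of DEGs among higher members was 0 rather than 1 with library totals and with limma on FPKM under both pseudocounts and without the filter. Among lower members it was 0, but 2 with library totals (Cd36 and Ppargc1b), and 1 with upper quartile scaling, a count of at least 1 in any library, the replicate block, and without ctrl-Treg library 3 or Sora-Treg library 2. The median log2 fold change of the members was 0.0118, against -0.0262 with upper quartile scaling, -0.104 with library totals, and -0.0657, -0.0825 and -0.0840 with limma on log2(FPKM + 1), log2(FPKM + 0.1) and unfiltered log2(FPKM + 1). In the same order limma gave 15, 15 and 16 other pathway genes higher, against 25.

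Log2 fold changes of members not called turned sign as follows. With library totals, Fabp5 was -0.104, Acsl1 -0.0833, Slc25a20 -0.11, Acads -0.0269, Acox3 -0.00066 and Acaa1a -0.0712. With limma on log2(FPKM + 1), filtered or not, they were -0.102, -0.0657, -0.104, -0.0259, -0.00133 and -0.0649, and on log2(FPKM + 0.1) -0.103, -0.0825, -0.11, -0.0271, -0.00154 and -0.0676. These settings also lowered the median of all genes, by 0.12 with library totals and by 0.10, 0.07 and 0.11 with limma in this order, and Fabp5 was called lower in each of them. Upper quartile scaling gave -0.0262, -0.00581 and -0.0325 for Fabp5, Acsl1 and Slc25a20, and a count of at least 1 in any library -0.00306 and -0.00885 for Fabp5 and Slc25a20. Leaving out single libraries gave ranges from -0.00827 to 0.0264 for Fabp5, from -0.00175 to 0.0872 for Acsl1, from -0.0519 to 0.0407 for Slc25a20, from -0.148 to 0.00645 for Decr1 and from -0.00102 to 0.106 for Acaa1a. Without ctrl-Treg libraries 1 and 2, Cd36 was 0.849, Abhd5 0.0633, Acsl1 -0.0800 and Slc25a20 -0.0513, and 20 other pathway genes were lower. The cause of these changes was not tested. Depth limits Ppara and Cd36, with at most 7 and 42 counts per library.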
